A study of Rattus norvegicus with 8 samples.

Results

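Eicosanoids are signalling lipids made from arachidonic acid, and 8 genes for enzymes of their synthesis were examined in the rat hypothalamus: Ptgds, Hpgds, Ptgs1, Ptgs2, Ptges, Alox15, Alox5 and Alox12. They are 8 of the 14506 genes that had a uniquely named probe set on the array. The set covers the prostaglandin synthases, cyclooxygenases and lipoxygenases, and its members were chosen on their role with the log2 diet differences of Ptgds and Alox15 on these same arrays already known. Diet differences of the 8 genes are therefore described below without a test, and tests on them are limited to the leptin comparisons. Each gene was represented by 1 probe set, so the rule of keeping the brightest probe set of a gene left nothing to choose.

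RNA came from the hypothalamus of female Sprague-Dawley rats aged 21 days and was hybridised to 8 Affymetrix Rat Gene 1.0 arrays, a replicate A and a replicate B in each of 4 groups. CR-l and CR-s were offspring of mothers on calorie restriction with leptin or saline, and Con-l and Con-s were offspring of normally fed mothers with leptin or saline. Restriction removed 50% of calories from gestation day 11 to 21 and continued after birth, and leptin or saline was given from postnatal day 2 to 8. No allele, transgene or deletion is named for any group. Leptin is the adipose hormone whose loss during undernutrition signals low energy stores to the hypothalamus, and the title of the series asks whether giving it early offsets the effect of restriction. The design note writes Con-r for the leptin-treated controls, which was read as Con-l from the sample titles. From the sample names the treatment could also have been the mothers', and whether a sample pools animals or litters is not stated, so p-values measure only the spread between these samples.

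Phospholipases free arachidonic acid from membranes. The cyclooxygenases Ptgs1 and Ptgs2 turn it into prostaglandin H2, which terminal synthases such as Ptgds, Hpgds and Ptges convert to prostaglandin D2 or E2. Lipoxygenases take another route and add oxygen to arachidonic acid to give hydroperoxides and leukotrienes. In the brain, Ptgds is known from the meninges, the choroid plexus and oligodendrocytes. Its product is secreted into the cerebrospinal fluid as beta-trace, a carrier of lipophilic molecules, and the prostaglandin D2 it makes is known for promoting sleep.

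The sequence upstream of a gene is shown here for Ptgds and Alox5, the members with a promoter in the RefSeq table (GRCr8) whose arrays did not overlap between diets, Ptgds lower and Alox5 higher under restriction. Both stretches are the 250 bases before the annotated start, Ptgds at chr3:28682979-28683228 on the minus strand and Alox5 at chr4:151251127-151251376 on the minus strand. Capitals mark matches to the motifs searched.
Ptgds: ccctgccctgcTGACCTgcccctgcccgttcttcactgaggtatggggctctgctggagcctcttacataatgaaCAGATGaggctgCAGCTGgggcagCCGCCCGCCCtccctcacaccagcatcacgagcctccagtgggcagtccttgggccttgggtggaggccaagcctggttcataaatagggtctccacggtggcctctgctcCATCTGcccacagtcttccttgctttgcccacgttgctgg
Alox5: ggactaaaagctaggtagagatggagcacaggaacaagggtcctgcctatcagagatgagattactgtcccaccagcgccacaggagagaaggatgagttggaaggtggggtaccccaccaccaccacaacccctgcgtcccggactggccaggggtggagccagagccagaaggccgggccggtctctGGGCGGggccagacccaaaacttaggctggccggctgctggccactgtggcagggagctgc
The search covered the 300 bases of each promoter in the table, 250 before and 50 after the start, on both strands. The motifs were the TATA box (TATAAA), the CCAAT box (CCAAT), the E-box (CANNTG), the GC box (GGGCGG), part of a glucocorticoid receptor site (AGAACA), part of a nuclear receptor site (AGGTCA) and the STAT site (TTCNNNGAA). Ptgds held 5 E-box matches, of which those at -175, -163 and -40 from the start are in the printed part. It also held 2 GC box matches in reverse orientation at -151 and -147, which overlap each other, and 1 reverse match to the nuclear receptor part at -239. The Alox5 window held 1 GC box match at -61 and 1 E-box match, which lies after the start. Among 33469 rat promoters of this length, 72.1% held an E-box match, 33.1% a GC box match and 16.2% a match to the nuclear receptor part, so these letters are common. Neither window matched the TATA box, the CCAAT box, the glucocorticoid receptor part or the STAT site, which 14.2%, 37.5%, 20.7% and 8.87% of promoters held.

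Levels are given as log2 of the deposited linear intensity, with a difference of 1 standing for a change of 2-fold. Median intensity was 111.8 to 114.1 between arrays, and replicates of a group correlated at 0.9947 to 0.9955 across probe sets. Each array's weakest correlation, whichever partner gave it, fell between 0.9938 and 0.9947. In the CR-s group, replicate A was least correlated with replicate B (0.9947), so replicates were not always the closest pairs. CR-s replicate B had a narrower interquartile range (2.92) than the other arrays (3.01 to 3.08). Con-l replicate A had the highest summed intensity of meningeal fibroblast genes (4739, against 2482 to 3743 on the others) and of anterior pituitary genes (861, against 302 to 359). Of 10 genes listed for hypothalamic neurons 9 were measured, and Agrp, Pomc and Oxt were brighter than 98.6% to 100% of the 1105 olfactory receptor genes on the array. Those receptor genes served as a guide to signal without transcript, with a median of 4.26 and a 95th percentile of 5.86. Of the 8 enzyme genes, only Alox12 (mean 4.78) lay within that range. Hpgds (6.11), Alox5 (6.42) and Ptgs2 (6.52) lay near its upper end, brighter than 97.3%, 98.6% and 98.9% of the receptor genes. Pomc, at 6.21 to 6.58 on the 8 arrays, lay near that end too.

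Ptgds was lower in restricted offspring on every array. Its level was 9.77 and 9.89 in CR-l and 10.12 and 9.63 in CR-s, against 11.67 and 11.22 in Con-l and 11.34 and 11.34 in Con-s. The highest CR array (10.12) thus lay below the lowest Con array (11.22). Averaged over saline and leptin, the difference CR minus Con was -1.54 (SE 0.13), a 2.92-fold lower level. It was -1.47 (SE 0.19) between the saline groups and -1.62 (SE 0.19) between the leptin groups, so both treatments showed it at a similar size. On the linear scale Ptgds averaged 908 ± 53 in CR-l and 952 ± 226 in CR-s, against 2825 ± 619 in Con-l and 2594 ± 8.9 in Con-s (SD, n = 2 each). The CR-s replicates differed by more than those of CR-l, and the difference between the saline groups was -1.71 without CR-s replicate A and -1.22 without CR-s replicate B.

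Alox15, a lipoxygenase that adds oxygen to arachidonic acid, showed the other large difference. Its level was 7.64 and 7.15 in CR-l and 7.65 and 7.82 in CR-s, against 8.98 and 8.58 in Con-l and 9.24 and 9.55 in Con-s. There was no overlap between the diets. The averaged difference CR minus Con was -1.52 (SE 0.14), a 2.86-fold lower level, with -1.65 (SE 0.20) between the saline groups and -1.38 (SE 0.20) between the leptin groups. Mean linear intensity was 171 ± 40 in CR-l and 214 ± 18 in CR-s, against 443 ± 87 in Con-l and 676 ± 102 in Con-s (SD, n = 2 each). Within each diet both leptin arrays were below both saline arrays, a pattern that no other member showed and that 2.64% of all genes had. In CR the margin was narrow, with 7.64 in CR-l replicate A against 7.65 in CR-s replicate A.

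Alox5 encodes the lipoxygenase that starts leukotriene synthesis, and it was the member with higher levels under restriction. It had 6.57 and 6.81 in CR-l and 6.63 and 6.59 in CR-s, against 6.35 and 6.01 in Con-l and 6.44 and 5.97 in Con-s. All CR arrays were above all Con arrays, with 6.57 as the lowest CR value and 6.44 as the highest Con value. The averaged difference was 0.46 (SE 0.12). Its lowest values, 5.97 and 6.01, were close to the 95th percentile of the olfactory receptor genes (5.86). Its size between the saline groups depended on the control array used: 0.41 with both, 0.64 without Con-s replicate A and 0.17 without Con-s replicate B.

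In the other 5 members the CR and Con arrays overlapped. The cyclooxygenase Ptgs1, the constitutive form, had 6.87 and 6.70 in CR-l and 6.99 and 6.75 in CR-s, against 7.26 and 6.88 in Con-l and 7.05 and 6.96 in Con-s. Its averaged difference was -0.21 (SE 0.10). The inducible cyclooxygenase Ptgs2 stayed between 6.40 and 6.65 on all arrays, with an averaged difference of -0.12 (SE 0.06). Both cyclooxygenases, which make the substrate of Ptgds, had far smaller differences than Ptgds. Nothing is read from that contrast, since Ptgds was chosen with its diet difference known.

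Hpgds, the prostaglandin D synthase of blood and immune cells, had 6.01 and 6.06 in CR-l and 6.22 and 5.99 in CR-s, against 6.24 and 6.20 in Con-l and 6.08 and 6.04 in Con-s. It makes the same product as Ptgds from an unrelated protein, and its averaged difference was -0.07 (SE 0.06). Ptges, the inducible prostaglandin E synthase, ranged from 6.44 to 6.88 with an averaged difference of -0.07 (SE 0.09). Alox12, the platelet-type lipoxygenase, ranged from 4.66 to 4.94 with a difference of -0.11 (SE 0.07), at levels where signal and background are hard to separate. Within groups the replicate SD was 0.24 for Ptgds, 0.26 for Alox15 and 0.22 for Alox5, against 0.08 to 0.17 for these 5 genes. Leaving out Con-l replicate A turned the sign of the Ptges difference.

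As a background, 1.21% of all 14506 genes passed an adjusted p under 0.05 in the averaged diet comparison (limma, Benjamini-Hochberg adjustment over all genes), 0.882% lower and 0.324% higher in CR. The arrays of the diets did not overlap in 6.67% of genes with CR lower and in 4.52% with CR higher. Between the saline groups 0% of genes passed and between the leptin groups 0.0207%. The median difference over all genes was 0.00 in the averaged comparison. Nothing is read from the members against these shares, since the diet difference was used in choosing them.

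**Figure D1:**
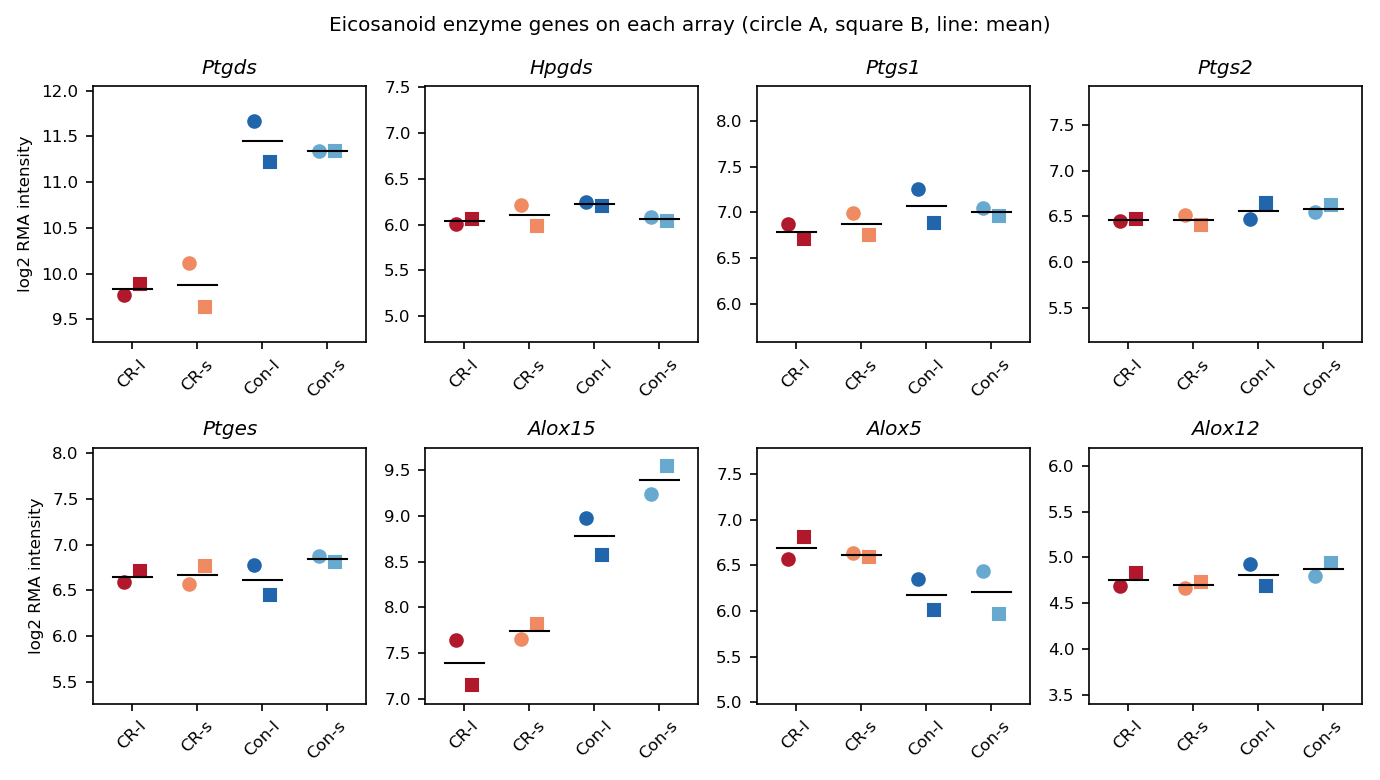
Log2 RMA intensity (vertical axis, each panel spanning the same number of log2 units) of the 8 enzyme genes in the groups CR-l, CR-s, Con-l and Con-s; circles are replicate A, squares replicate B and lines the group mean. All CR arrays lie below all Con arrays for Ptgds and Alox15 and above them for Alox5, and the groups overlap in the other 5 panels.

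Whether early leptin moved these genes was tested in 4 comparisons: leptin minus saline averaged over diets, leptin minus saline within each diet, and the difference between these 2 leptin effects (interaction). None of the 8 genes passed in any of them (limma, adjusted p over all genes), and only Alox15 reached an unadjusted p under 0.05, in the averaged comparison and in Con-l minus Con-s. The share of all genes that passed was 0% in each of the 4, with 707 genes at an unadjusted p under 0.05 in the averaged leptin comparison, 849 in CR-l minus CR-s, 608 in Con-l minus Con-s and 747 in the interaction.

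Alox15 had the lowest unadjusted p of the members. The averaged leptin difference was -0.48 (SE 0.14, 95% interval -0.81 to -0.15, adjusted p = 0.913 from limma, unadjusted p 0.0105), and leptin arrays lay below saline arrays in both diets. Leptin arrays lay below saline arrays in both diets in 2.64% of all genes. The difference was -0.34 (SE 0.20, limma adjusted p = 0.815) in CR-l minus CR-s, with -0.59 without CR-l replicate A and -0.10 without CR-l replicate B, and -0.61 (SE 0.20, limma adjusted p = 0.997) in Con-l minus Con-s. The interaction was 0.27 (SE 0.28, limma adjusted p = 0.943), and ran from 0.03 without CR-l replicate A to 0.52 without CR-l replicate B, so a dependence of the leptin difference on diet was not detectable.

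Ptgds was nearly level between leptin and saline. The averaged difference was 0.03 (95% interval -0.28 to 0.34, limma adjusted p = 0.982), and it was -0.05 (95% interval -0.48 to 0.39) in CR-l minus CR-s. The upper end of the interval in restricted offspring, 0.39, stands beside a difference of -1.47 for CR-s minus Con-s, which shares the CR-s arrays. The interaction of Ptgds was -0.15 (SE 0.26, limma adjusted p = 0.973), and it changed sign to 0.07 without Con-l replicate A and to 0.09 without CR-s replicate A.

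For the other 6 members the averaged leptin difference lay between -0.12 (Ptges) and 0.05 (Hpgds). Hpgds had 0.16 in Con-l minus Con-s and -0.07 in CR-l minus CR-s, with an interaction of -0.23 (SE 0.12, limma adjusted p = 0.898). Ptges had -0.23 in Con-l minus Con-s and -0.01 in CR-l minus CR-s. The leptin differences of Ptgs1, Ptgs2, Alox5 and Alox12 were -0.08 to 0.08 in CR-l minus CR-s and -0.06 to 0.07 in Con-l minus Con-s. With 2 arrays a group, differences of these sizes were not resolved.

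**Figure D2:**
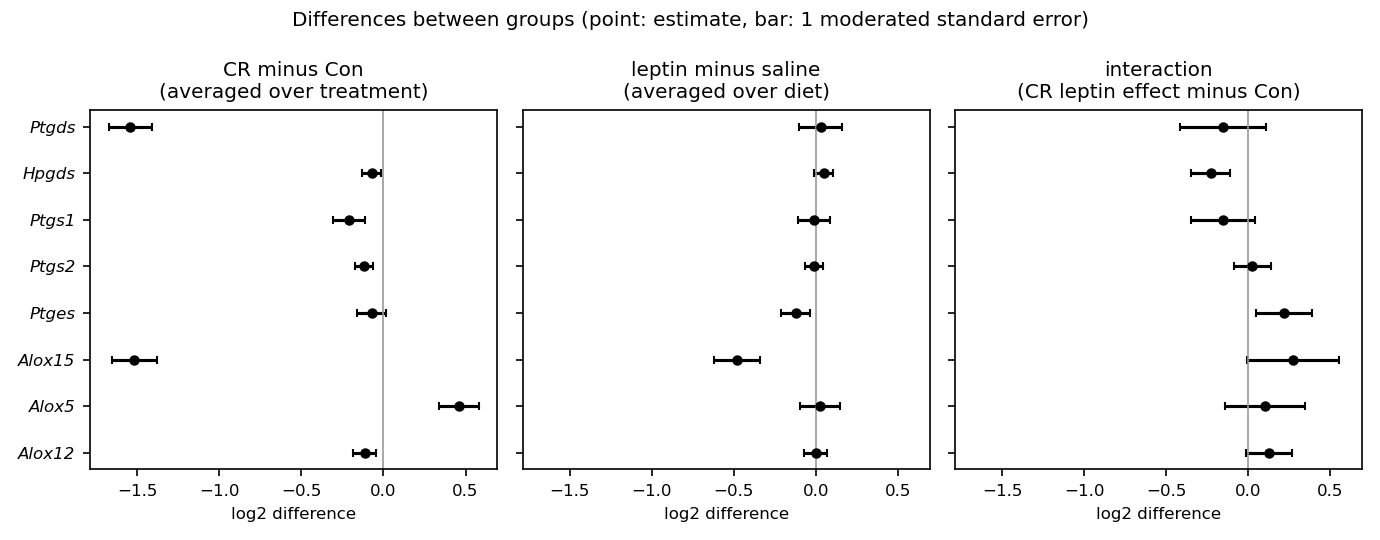
Log2 differences (horizontal axis) of the 8 genes for CR minus Con averaged over treatments, leptin minus saline averaged over diets, and the interaction; points are estimates and bars 1 moderated standard error. Ptgds and Alox15 stand near -1.5 in the diet panel, Alox5 at 0.46, and in the leptin panel Alox15 at -0.48 is the point farthest from 0.

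The wider pathway was followed in 5 lists with 80 gene symbols, of which 69 were measured. None of the 69 passed in any of the 7 comparisons of diet or leptin (limma, adjusted p over all genes), and 2 to 18 had an unadjusted p under 0.05. In the averaged diet comparison 35 of 69 were lower in CR, the median difference was -0.00, and 18 had an unadjusted p under 0.05. Over all 14506 genes 49.7% were lower in CR, and 2285 (15.8%) had an unadjusted p under 0.05. The differences of the 69 ranged from -0.49 to 0.42. Those of Ptgds and Alox15 lie beyond that range, which their choice fixed.

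Of 16 genes of substrate release, 11 were lower in CR (median -0.04). Plaat3, a phospholipase known best from adipose tissue, differed by -0.17 (limma adjusted p = 0.131). Pla2g4a, the cytosolic phospholipase A2 that supplies cyclooxygenases with arachidonic acid, differed by -0.16 (limma adjusted p = 0.267), and Lpcat3, which puts arachidonate back into membranes, by -0.15 (limma adjusted p = 0.214).

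Of 8 other prostanoid synthases, 6 were lower (median -0.04). Cbr1, a carbonyl reductase that also acts on prostaglandins, had 9.43 or more on every CR array, against 9.28 or less on every Con array, with a difference of 0.29 (SE 0.07, limma adjusted p = 0.103). Akr1c3 differed by 0.42 (limma adjusted p = 0.261), with levels of 4.01 to 4.67 in CR and 3.84 to 4.07 in Con that lie within the olfactory receptor range. Akr1b1, an aldose reductase with prostaglandin F synthase activity, differed by -0.13 (limma adjusted p = 0.280).

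Of 20 other lipoxygenase, leukotriene and epoxide genes, 8 were lower (median 0.01). Ephx1, the microsomal epoxide hydrolase, was the gene nearest to the threshold in all 5 lists: 7.82 to 8.05 in CR against 8.11 to 8.30 in Con, a difference of -0.24 (SE 0.05, limma adjusted p = 0.0832). Ephx2, the soluble hydrolase that degrades epoxides of arachidonic acid, differed by -0.49 (SE 0.17, limma adjusted p = 0.224). Mgst2, which can make leukotriene C4, differed by 0.22 (limma adjusted p = 0.127). Alox5ap, the partner protein that Alox5 needs to act on its substrate in cells, differed by only 0.02 (SE 0.11). The other lipoxygenases Alox12e, Alox12b, Aloxe3 and Alox15b differed by 0.01 to 0.10.

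Of 9 genes of breakdown and transport, 7 were higher in CR (median 0.10). Slco2a1, the prostaglandin uptake carrier, differed by 0.34 (SE 0.10, limma adjusted p = 0.155). The reductases Ptgr2 and Ptgr3, which inactivate prostaglandin metabolites, differed by -0.14 (limma adjusted p = 0.214) and 0.18 (limma adjusted p = 0.268). Of 16 receptor genes, 8 were lower (median 0.01). Ptgdr2, a receptor for prostaglandin D2, differed by -0.00 (SE 0.04). Gpr17, which the list of oligodendrocyte precursors also holds, differed by -0.14, the chemerin receptor Cmklr1 by -0.15 and Ptgfrn, a negative regulator of the prostaglandin F receptor, by 0.16, none of them past the threshold (limma adjusted p = 0.239, 0.259 and 0.293).

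**Figure D3:**
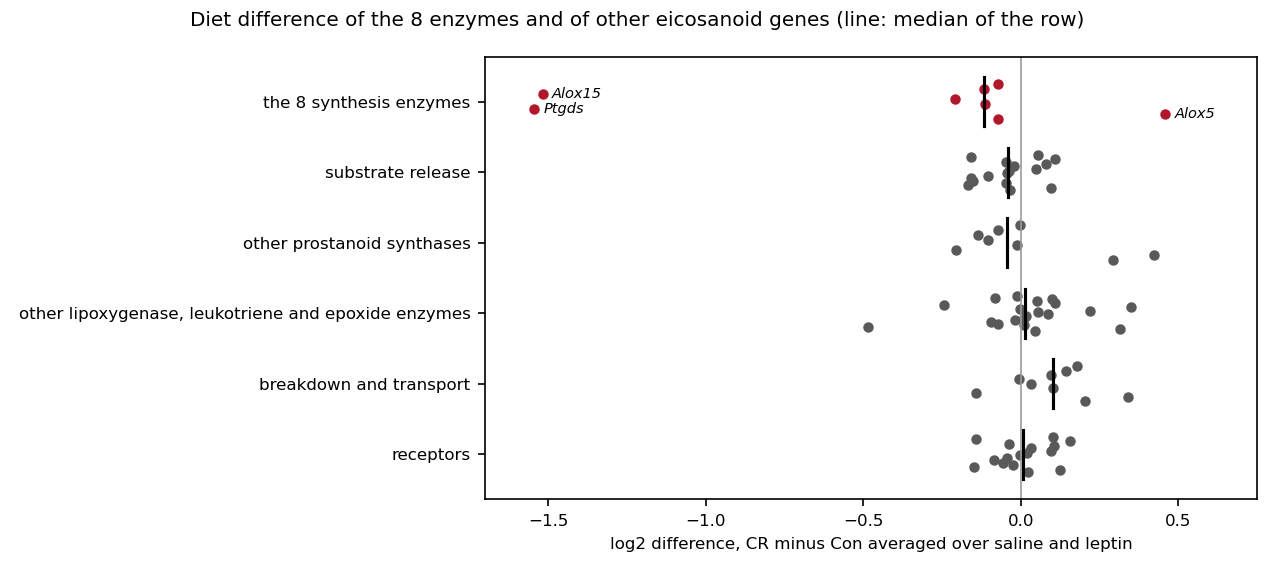
Log2 difference CR minus Con averaged over saline and leptin (horizontal axis) for the 8 synthesis enzymes (red) and the 69 other eicosanoid genes (grey) by list; each point is a gene, scattered vertically for legibility, and the black line is the median of its row. Ptgds and Alox15 lie near -1.5, and the other 75 points lie between -0.49 and 0.46.

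In a tissue sample, fewer cells of a type and less RNA per cell cannot be told apart, and several cell types known to make these enzymes had marker genes that differed between diets too. The marker lists were drawn up with earlier results of these data known. Their counts and p-values are therefore descriptions and no independent support. Of 13 measured genes of meningeal fibroblasts, which make Ptgds, all 13 were lower in CR (median -0.34) and 3 passed: Ogn at -1.21, the GABA and taurine transporter Slc6a13 at -0.60 and the collagen gene Col1a2 at -0.32 (limma adjusted p = 0.0223, 0.0325 and 0.0416). The summed intensity of the list was 2482 to 2939 on CR arrays and 3431 to 4739 on Con arrays. Dcn, a matrix proteoglycan of the same cells, differed by -0.34 and did not pass (limma adjusted p = 0.262).

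Myelinating oligodendrocytes, another source of Ptgds, had all 13 measured genes lower in CR (median -0.24), and 3 passed: Ermn at -0.54, the galactolipid enzyme Ugt8 at -0.28 and the myelin enzyme Cnp at -0.27 (limma adjusted p = 0.0223, 0.0454 and 0.0449). The major myelin genes Mog, Mbp and Mag differed by -0.27, -0.15 and -0.20 and did not pass (limma adjusted p = 0.109, 0.167 and 0.163). The list summed to 41968 to 45625 in CR and 48195 to 52915 in Con. Of 7 choroid plexus genes only Kcnj13, a potassium channel, passed (-1.17, limma adjusted p = 0.0223), and 4 of the 7 were higher in CR (median 0.01). The list summed to 537 to 547 in CR and 570 to 625 in Con. Without Kcnj13 it summed to 484 to 499 in CR and 471 to 511 in Con, so that gene alone separated the diets. Ttr and Folr1, the usual markers of that epithelium, differed by 0.04 and 0.08, and Ttr at 6.18 to 6.92 lay near the upper end of the olfactory receptor range on every array. The part of meningeal, myelin and choroid plexus cells in the Ptgds difference was not tested.

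Red blood cell genes were lower in CR together with Alox15. All 5 measured genes of this list were lower in CR and passed, at -0.70 to -1.46 (median -1.29). They were the globin genes Hbb and Hbb-b1, whose near-identical sequences the probes may not separate, the haem synthesis enzyme Alas2, the globin chaperone Ahsp and the anion exchanger Slc4a1 (limma adjusted p = 0.0223 to 0.0325). The list summed to 1306 to 2124 in CR and 3796 to 5764 in Con. A lipoxygenase related to Alox15 is known from rabbit reticulocytes, which use it as they break down their mitochondria. In the averaged leptin comparison 4 of the 5 genes were lower (median -0.23) and none passed by limma, with none at an unadjusted p under 0.05. The part of red cells in the Alox15 difference was not tested.

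Markers of immune cells that express lipoxygenases and Hpgds did not pass in either direction by limma: 0 of 8 genes of microglia, 0 of 8 of border macrophages and monocytes, 0 of 8 of mast cells, 0 of 8 of granulocytes and 0 of 4 of platelets, with 2, 4, 0, 0 and 0 genes at an unadjusted p under 0.05. Over all genes, 15.8% reached that unadjusted level. The microglial genes Cx3cr1, P2ry12 and Csf1r differed by -0.04 to 0.09, while the integrin gene Itgam, named after its value was seen, differed by -0.35 (limma adjusted p = 0.0746) and passed under 3 alternatives. The microglial list summed to 3835 to 4154 in CR and 3877 to 4157 in Con. Of the border macrophage genes, Mrc1 differed by 0.10, Cd163 by 0.32 and Lyve1 by 0.26 (limma adjusted p = 0.326, 0.153 and 0.0980), and Lyve1 passed under 2 alternatives. In the same list 3 of 8 genes were lower, down to -0.63 for Cd74, the invariant chain of antigen presentation, also named after its value was seen (limma adjusted p = 0.155). That list summed to 731 to 831 in CR and 725 to 867 in Con. Mast cell genes summed to 353 to 453 in CR and 337 to 465 in Con. Mast cell genes Cpa3 and Ms4a2, at 3.49 to 3.99 and 3.94 to 4.23, lay within the olfactory receptor range. The part of immune cells in the Alox5 difference was not tested. Among the remaining lists, Rgs5 (-0.38) and Tagln (-0.35) of mural cells and the astrocyte gene Gfap (-0.94) passed lower, and among hypothalamic neuron genes Agrp passed higher (0.70) and Oxt lower (-0.38); endothelium, ependyma, oligodendrocyte precursors, pituitary and pineal lists had no passing gene by limma, with 2, 1, 2, 0 and 0 genes at an unadjusted p under 0.05.

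The genes most like Ptgds and Alox15 across arrays were named by the highest Pearson correlation of log2 levels over the 8 arrays. Because the CR and Con values of these genes form separate clusters, this measure mostly reads the diet difference. The same measure after subtracting each diet's mean is therefore given beside it. The arrays share labelling and normalization, and both values are descriptions. For Ptgds the 5 genes were the sphingosine kinase Sphk2 (0.990, and 0.76 with diet means removed), the histone gene Hist1h2bq (0.989 and 0.74), the secreted ribonuclease Rnase4 (0.989 and 0.73), the splicing factor Xab2 (0.985 and 0.80) and Erbb3, a neuregulin receptor of glial lineages (0.984 and 0.65).

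For Alox15 the 5 genes were the haem synthesis gene Alas2 (0.991, and 0.93 with diet means removed), the potassium channel Kcna6 (0.990 and 0.93), the sterol isomerase Ebp (0.982 and 0.92), the red cell exchanger Slc4a1 (0.981 and 0.86) and the chromatin protein Banf1 (0.978 and 0.83). Alas2 and Slc4a1 are on the red cell list, and none of the genes named for Ptgds is. Ptgds and Alox15 themselves had 0.899 over the 8 arrays and -0.07 once the diet means were removed, so within a diet no common movement was visible.

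The same measure was taken against the means of the 17 cell type lists, with diet means removed. Alox15 ran from -0.64 (oligodendrocyte precursors) to 0.83 (red blood cells), and had -0.32 with the 13 meningeal genes. Ptgds ran from -0.75 (platelets) to 0.86 (microglia). Of the cell types known to make it, Ptgds had 0.60 with the meningeal list, 0.57 with the choroid plexus list and -0.35 with the myelin list, and it had -0.03 with the red cell list. With 8 arrays and 17 lists, high values of this kind are descriptions and are particular to no list. Con-s replicate B was the highest within its diet in both Alox15 and the red cell mean (0.46 and 0.37 above the Con mean), and CR-l replicate B was the lowest of its diet in both (-0.41 and -0.31 relative to the CR mean). The highest CR array differed, being CR-s replicate B for Alox15 (0.26) and CR-l replicate A for the red cell mean (0.20). Con-l replicate A, the array with the most meningeal signal, was highest within its diet in Ptgds and in the meningeal mean (0.28 and 0.26 above). That array was also highest in the means of pituitary (0.50), mast cells (0.22), microglia (0.07), mural cells (0.06) and endothelium (0.06). Among CR arrays Ptgds was highest in CR-s replicate A (0.27), where the meningeal mean was at -0.03, and the meningeal mean was highest in CR-l replicate B (0.10), where Ptgds was at 0.04. Without Con-l replicate A the averaged diet difference of Ptgds was -1.43.

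**Figure D4:**
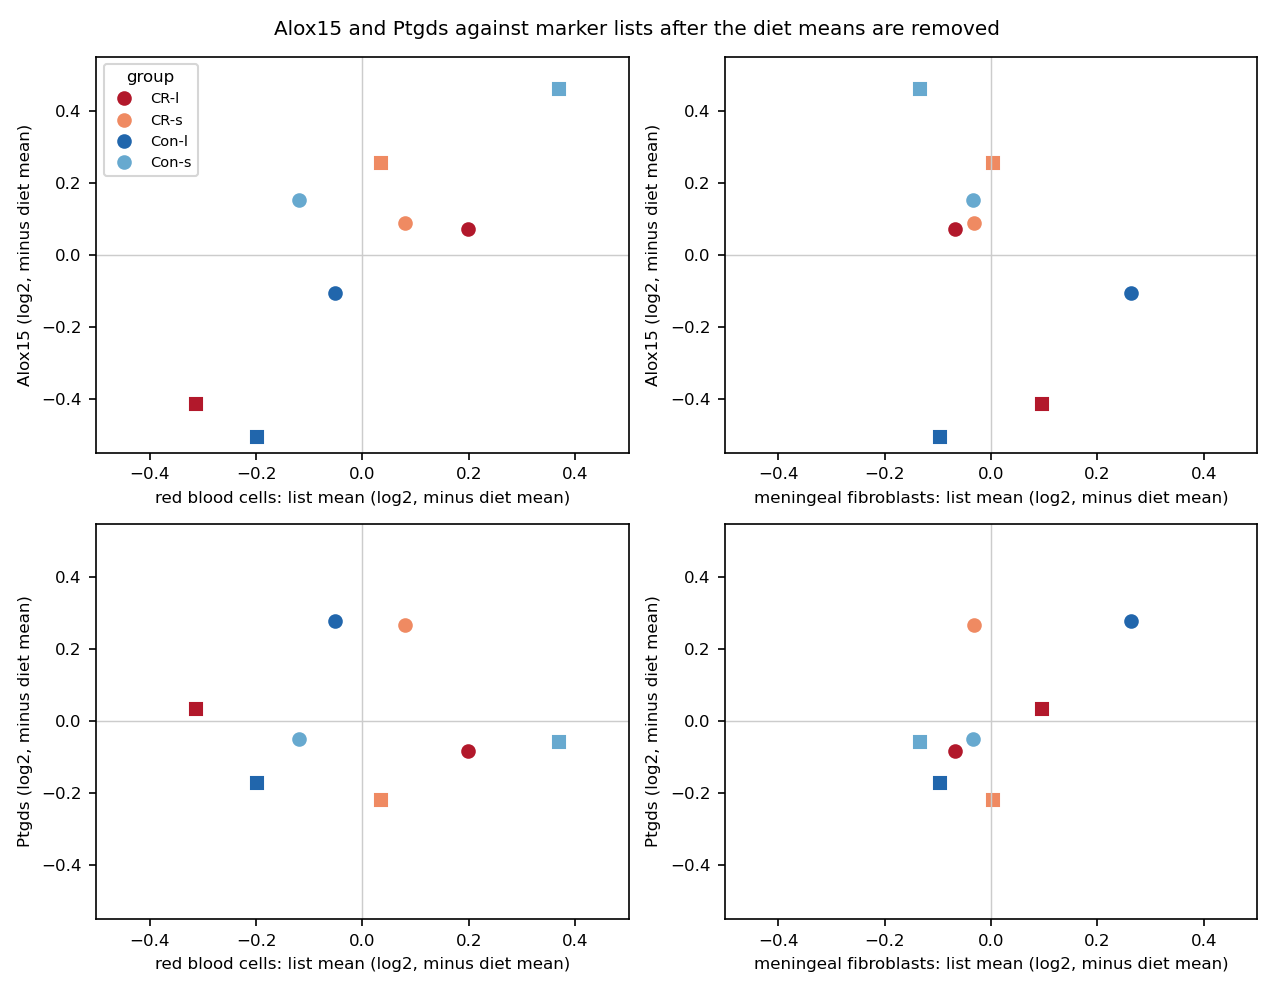
Alox15 (upper row) and Ptgds (lower row) against the mean of the red blood cell list (left) and of the meningeal fibroblast list (right), all as log2 values minus the mean of the array's diet; circles are replicate A, squares replicate B, coloured by group. The correlation with the red cell mean over the 8 arrays was 0.83 for Alox15, the highest of its 17 lists, and -0.03 for Ptgds. With the meningeal mean it was -0.32 for Alox15 and 0.60 for Ptgds.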

How the data were processed

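Per the submitters' processing notes, the authors used RMA and Affymetrix Expression Console, with versions not given in the sources used here. Each deposited value is the linear intensity of a probe set. They were log2-transformed and not normalized again. Of 29215 probe sets, 15310 carry 1 gene symbol in the array annotation and 323 several. The brightest probe set of each gene by mean over 8 arrays was kept, giving 14506 genes with no filter on dim ones. A limma model (limma 3.58.1, R 4.3.3) with 4 group means and default eBayes (4 residual and 3.21 prior degrees of freedom) gave all two-sided tests and moderated standard errors, and was tested on simulated data. Passing means an adjusted p under 0.05, by the Benjamini-Hochberg method across the 14506 genes. The number of arrays, 2 a group, limits the precision.

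The 8 members and all gene lists were chosen with earlier results of these data known. Genes were named by rule: the members, the 3 pathway genes of each list with the smallest p, the first 3 and up to 3 passing genes of each marker list, and the 5 most correlated genes of Ptgds and Alox15; other names were chosen after their values were seen. Alternatives varied the features tested, moderation, filter, normalization, samples, replicate letters, added constant and arrays.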

Additional observations from a re-analysis of the deposited data

How the results depend on the processing

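Over 16 alternatives, the averaged diet difference of Ptgds stayed between -1.42 and -1.67 and that of Alox15 between -1.40 and -1.64, and no member passed in a leptin comparison where it was tested. Of 32 such tests per alternative, the upper 60% of genes gave 12 (Ptgds, Ptgs1 and Alox15) and the fits of only the compared groups or factor 24, with none of the interaction. Of 24 diet values of the members, 4 changed sign under some alternative (Ptges averaged, without Con-l replicate A; Hpgds between the saline groups, without CR-s replicate A; Ptges and Alox12 between the leptin groups, each without either of 2 arrays). Of 32 leptin values 22 did, and the Ptgds interaction ran from -0.398 to 0.0899 as arrays were left out.

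Counts of passing genes depended on the setting. In the averaged diet comparison 175 genes passed, against 0 with all probe sets tested together, 744 with trend and robust moderation, 609 in the upper 60% of genes by mean, 267 with only the compared factor, 87 with the letters as a replicate block, 345 after adding 16 to each value, and 0 (without Con-s replicate B) to 27 (without CR-l replicate A) with an array left out. Between the saline groups the count of 0 became 66 with trend and robust moderation and 16 in the upper 60%. Between the leptin groups the count of 3 became 0 with all probe sets, 469 with trend and robust moderation, 249 in the upper 60%, 24 with quantile normalization, 24 with cyclic loess, 0 with only the compared groups, 0 with the replicate block, 143 after adding 16, and 0 to 3 with an array left out. In each of the 4 leptin comparisons the count was 0 to 1 with an array left out. The cause was not tested.

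Of 25 genes outside the 8 that passed in the averaged diet comparison and are named, all that had a value kept their sign; 22 to 25 still passed under 6 of the alternatives, 14 with the replicate block, 0 with all probe sets together and 0 to 6 with an array left out. Red cell genes that passed numbered 0 to 3 of 5 with an array left out, meningeal genes 0 to 3 of 13 and myelin genes 0 to 1 of 13. Pathway genes passed in some settings: Ephx1 (trend and robust moderation, upper 60%, adding 16), Cbr1 (the first of these and the upper 60%) and Plaat3 (upper 60%). Deviations of same-lettered replicates correlated at -0.06 to 0.11 between groups, so no strong common movement of the letters was visible. This measure could miss a batch that acts on few genes, and whether the letters mark a processing batch was not tested. No member had several probe sets, so that alternative gave no value. Alox12 lies within the olfactory receptor range, so small differences in it cannot be separated from background.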

Other observations

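Genes beside Ptgds and Alox15 on the chromosome were looked up by order in the RefSeq table, with 2 measured protein-coding neighbours on each side; this rule was set after the values of the members were known. Beside Ptgds, which is a lipocalin, the transporter gene Abca2 was lower in CR (-0.28, SE 0.04, limma adjusted p = 0.0336). On the other side lie the lipocalins Lcn12 and C8g, whose averaged diet differences ran against that of Ptgds: C8g, a subunit of the complement membrane attack complex, was higher (0.48, SE 0.06, limma adjusted p = 0.0223), and Lcn12 differed by 0.36 (SE 0.06, limma adjusted p = 0.0530). Clic3 differed by 0.08 (limma adjusted p = 0.451).

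Alox15 follows Alox12 and Alox12e on chromosome 10. Alox12e differed by 0.01 and Alox12 by -0.11, both within the olfactory receptor range (Alox12e at 4.35 to 4.69 on the 8 arrays), where a lower level could not be seen. On the far side Pelp1 and Arrb2 differed by 0.08 and 0.06.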
